A study of Homo sapiens with 12 samples.

Results

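The comparison set HepG2 cells with a hairpin RNA against p53 (sh-p53) beside HepG2 cells with a non-relevant control hairpin (sh-con) after both had been given Nutlin.
HepG2 is a human hepatoma line that keeps many functions of liver cells.
Nutlin is a small molecule that blocks the pocket of MDM2 into which p53 binds, and so protects p53 from degradation.
The sh-p53 Nutlin group held 2 arrays and the sh-con Nutlin group 2 arrays, 4 of the 12 arrays of the series, chosen by their titles.
In all groups RNA was taken after 24 h of treatment, with Nutlin at 10 uM.
The other groups, each of 2 arrays, were sh-p53 and sh-con cells in DMSO, the solvent control, and sh-p53 and sh-con cells with AICAR at 0.5 mM, a nucleoside that cells convert to an AMP mimic.
Cells had been plated in duplicate wells at 700000 per well, so p-values measure the spread between wells of 1 line per hairpin.
No second line or second hairpin was given in the labels, and an effect of p53 loss and any other difference between these lines cannot be told apart.
The transcript that the hairpin targets was not analysed here.

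p53 is a transcription factor that is held at a low level by MDM2, the ubiquitin ligase encoded by one of its own target genes.
Once freed, it binds pairs of decamer sites in DNA and activates genes of growth arrest, cell death, repair and metabolism.
One of these targets, CDKN1A, encodes p21, an inhibitor of cyclin-dependent kinases.
Through p21 the RB family of proteins and the DREAM complex repress genes of S phase and mitosis, largely at E2F sites and at the cell cycle genes homology region, or CHR.

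Values were log2 intensities made by RMA, the robust multi-array average, so a difference of 1 is a 2-fold change.
The 12 arrays had medians between 5.64 and 5.84, and duplicates correlated at 0.992 (sh-p53 Nutlin) and 0.991 (sh-con Nutlin) across probe sets, which are not independent replicates.
Genes with a mean under 4.58 over all arrays, the 25th percentile, were called dim and left out, and 13813 genes were tested in 1 limma fit over the 12 arrays.
Calls were made where the adjusted p (Benjamini-Hochberg, over all 13813) was under 0.05, and errors are standard errors (SE) of that fit.
Of 11 measured hepatocyte markers 10 were not called (at an unadjusted p under 0.05, 1 of the 11 was higher and 3 lower), and the list's mean level was 11.55 and 11.42 in the sh-p53 Nutlin arrays and 11.56 and 11.52 in the sh-con Nutlin arrays.
Transthyretin (TTR) was the 11th, with a difference of -0.44 ± 0.134 (adjusted p 0.0243 by limma, 2 arrays per group); that call was lost with arrays centred on their median and without any 1 of sh-con Nutlin replicate 1, sh-con Nutlin replicate 2 and sh-p53 Nutlin replicate 2.

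Under Nutlin, sh-p53 cells had 1808 genes higher (13.1% of those tested) and 1148 lower (8.31%) than sh-con cells.
The median difference over all tested genes was -0.03.
At least 2-fold differences were present among 433 of the higher and 248 of the lower genes, and in every one of these the arrays of the 2 groups did not overlap.
Without overlap alone, 30% of all tested genes had both sh-p53 arrays above both sh-con arrays, and 28.7% had both below.
The count of higher genes was 889 without sh-p53 Nutlin replicate 1 and 958 without sh-con Nutlin replicate 2, and that of lower genes was 733 without sh-con Nutlin replicate 1.
With each of these 4 arrays left out in turn, more genes were called higher than lower. The margin was narrow without sh-p53 Nutlin replicate 1 or sh-con Nutlin replicate 2. Of all calls 61.2% were higher, against 53.2% after a second quantile normalisation.

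The lowest genes in sh-p53 cells included several known p53 targets, some of them also genes of lipid transport, and genes of the cell surface.
SERPINE2, a secreted protease inhibitor, stood at 5.79 and 5.44 in the sh-p53 Nutlin arrays, against 9.61 and 9.58 in the sh-con Nutlin arrays.
This was the largest fall in the comparison, 15.7-fold (log2 difference -3.98 ± 0.168, adjusted p 2.15e-11 by limma, 2 arrays per group).
ABCA12, a lipid transporter known from the skin barrier, had values of 3.86 and 3.95 in sh-p53 cells and of 7.79 and 7.64 in sh-con cells, a difference of -3.80 ± 0.129.
Its sh-p53 values were below that dim level, so the size of the change is uncertain there. Of its group means only that of sh-con Nutlin was above the level, so ABCA12 passed the filter through that group.
PLTP, which moves phospholipids between lipoproteins, stood at 7.36 and 7.0 in sh-p53 cells and at 10.96 and 10.89 in sh-con cells (difference -3.75 ± 0.146).
TP53I3, a quinone oxidoreductase with a p53-bound microsatellite, had 8.35 and 7.88 in sh-p53 cells against 11.53 and 11.50 in sh-con cells (difference -3.40 ± 0.159).
SULF2, an enzyme that trims sulfate from heparan sulfate outside the cell, had 7.23 and 7.20 in sh-p53 cells against 10.47 and 10.45 in sh-con cells (difference -3.24 ± 0.145).
For each of these genes the gap between the groups was many times the spread within them.
The others of the 12 lowest were CSTA, a cysteine protease inhibitor (-3.55), LYVE1, a hyaluronan receptor (-3.55), CLTRN, an amino acid transporter partner (-3.35), FRMPD2 (-3.26), GSTA1, a glutathione transferase (-3.17), TSPAN7, a tetraspanin (-3.08), and TRIM22 (-2.98).
The sh-p53 means of LYVE1, CLTRN, FRMPD2 and TRIM22 were also below the dim level.

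The highest genes in sh-p53 cells were, with 1 exception among 12, genes of DNA replication, histones and mitosis.
H2BC14, a histone H2B gene, had 10.25 and 10.02 in sh-p53 cells against 6.05 and 5.77 in sh-con cells, 18.7-fold higher (log2 difference 4.23 ± 0.148, adjusted p 2.26e-12 by limma, 2 arrays per group).
CLSPN, the adaptor claspin of the replication checkpoint, stood at 8.19 and 8.0 in sh-p53 cells and at 4.14 and 4.21 in sh-con cells (difference 3.92 ± 0.135). A dimmer probe set of CLSPN differed by 2.75.
SPC25, a subunit of the kinetochore's NDC80 complex, had 7.56 and 7.19 in sh-p53 cells and 3.74 and 3.31 in sh-con cells (difference 3.85 ± 0.198).
CDK1, the cyclin-dependent kinase of mitotic entry, had 7.74 and 7.43 in sh-p53 cells and 4.45 and 3.85 in sh-con cells (difference 3.44 ± 0.201).
The sh-con means of CLSPN, SPC25 and CDK1 were below the dim level, and no array of one group reached those of the other.
The exception was PLA2G2A, a secreted phospholipase A2, at 10.66 and 10.39 in sh-p53 cells against 6.85 and 6.56 in sh-con cells (difference 3.82 ± 0.156).
Also among the 12 were H2AC4 (3.66), the mitotic kinase PBK (3.63), the kinetochore gene NUF2 (3.58), DTL, which directs degradation during S phase (3.52), the origin licensing factor CDC6 (3.51), H2BC7 (3.43) and the spindle motor KIF11 (3.42), whose sh-con mean was also below the dim level.
Histone genes are near-identical copies of each other, and probe sets may not tell them apart.

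**Figure D1:**
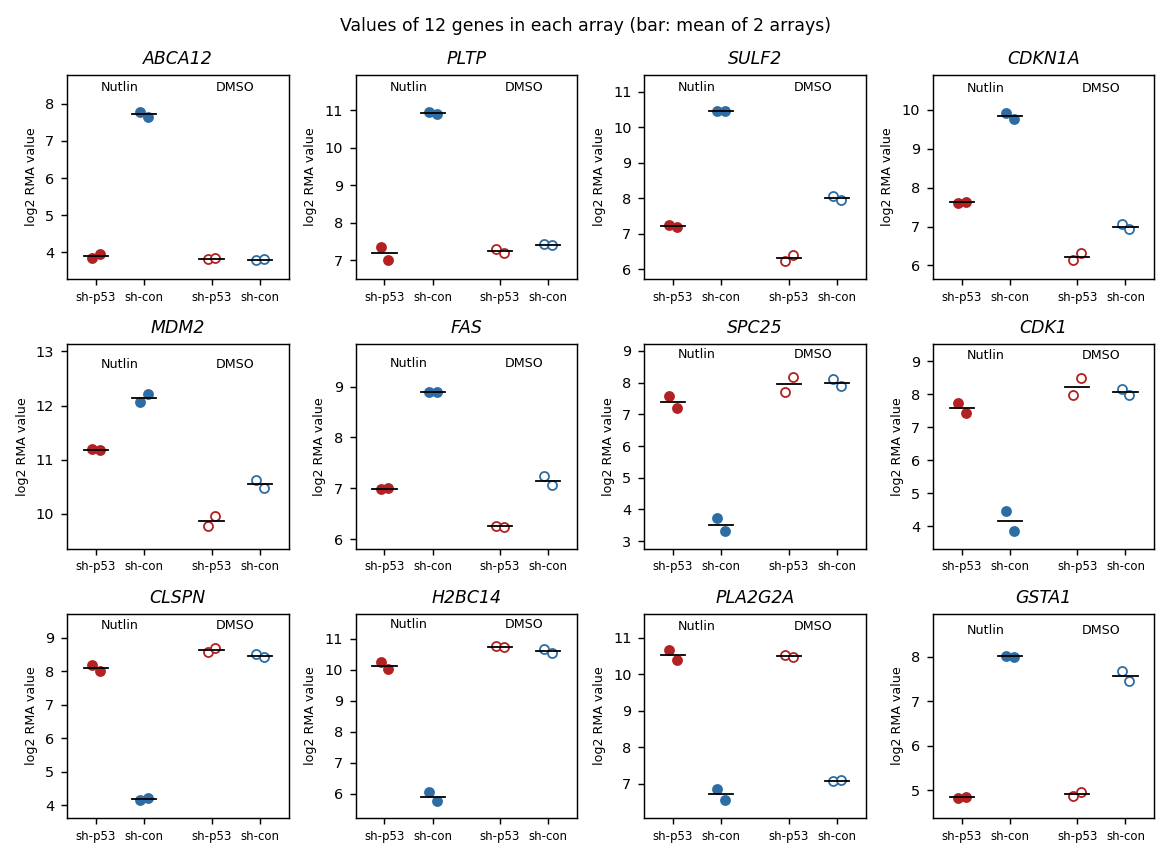
Log2 RMA values (y axis) of 12 genes in each array, with sh-p53 in red and sh-con in blue, filled under Nutlin and open in DMSO; bars are means of 2 arrays. SPC25, CDK1, CLSPN and H2BC14 were low in the sh-con Nutlin arrays only, whereas PLA2G2A and GSTA1 differed by nearly as much in DMSO. SULF2, CDKN1A, MDM2 and FAS also differed between the lines in DMSO, by less than under Nutlin.

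The regulatory sequence before the start of these genes is shown for some of those with the largest differences that held a motif searched for. The choice also left out genes by chromosome, so genes with larger differences could be passed over.
Windows of 300 bases (250 before the start to 50 after) came from RefSeq, build GRCh38.p14, and were found for 10836 of the 13813 tested genes.
Motifs were searched on both strands, and matches of different motifs could overlap.
The CHR was searched as TTTGAA and also in the form TTCGAA, and the CCAAT box by the letters of its name.
The E2F site was searched in 4 forms: TTGGCGC was the first, the second was TTCGCGC, the third form was TTCCCGC, and the last form was TTGCCGC.
The p53 decamer, 1 arm of the p53 response element, was searched by its consensus.
The first set, mitotic genes, has CHR and CCAAT matches in capitals: SPC25 (chr2:168890381-168890680, minus strand), NUF2 (chr1:163321704-163322003, plus strand) and CDK1 (chr10:60778081-60778380, plus strand).
SPC25: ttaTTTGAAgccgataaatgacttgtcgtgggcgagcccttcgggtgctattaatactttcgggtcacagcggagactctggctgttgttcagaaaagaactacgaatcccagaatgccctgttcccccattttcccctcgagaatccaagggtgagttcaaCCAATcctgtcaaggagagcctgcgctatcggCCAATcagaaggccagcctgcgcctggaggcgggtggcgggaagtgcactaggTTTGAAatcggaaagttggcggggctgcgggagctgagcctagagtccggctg
NUF2: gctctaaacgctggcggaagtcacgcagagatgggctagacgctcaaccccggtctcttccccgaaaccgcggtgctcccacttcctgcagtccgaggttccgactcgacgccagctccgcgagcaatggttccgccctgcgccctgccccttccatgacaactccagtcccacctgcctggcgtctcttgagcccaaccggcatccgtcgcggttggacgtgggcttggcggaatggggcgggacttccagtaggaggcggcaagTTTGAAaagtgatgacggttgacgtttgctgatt
CDK1: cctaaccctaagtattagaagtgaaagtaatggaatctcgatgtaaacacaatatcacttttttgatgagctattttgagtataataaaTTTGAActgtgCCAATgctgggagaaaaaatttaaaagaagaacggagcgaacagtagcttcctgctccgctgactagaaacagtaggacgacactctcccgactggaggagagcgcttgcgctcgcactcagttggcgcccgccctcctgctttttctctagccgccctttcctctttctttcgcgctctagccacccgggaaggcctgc

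The second set, S phase genes, has E2F and CCAAT matches in capitals: CLSPN (chr1:35769929-35770228, minus strand) and DTL (chr1:212035498-212035797, plus strand).
A match on the other strand reads as its reverse complement, ATTGG for the CCAAT box.
CLSPN: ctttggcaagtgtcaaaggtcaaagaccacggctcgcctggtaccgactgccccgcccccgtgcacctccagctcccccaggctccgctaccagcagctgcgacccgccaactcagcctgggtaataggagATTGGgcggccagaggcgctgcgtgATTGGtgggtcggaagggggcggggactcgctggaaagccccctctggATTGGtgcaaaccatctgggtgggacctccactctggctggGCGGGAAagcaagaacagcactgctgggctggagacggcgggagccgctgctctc
DTL: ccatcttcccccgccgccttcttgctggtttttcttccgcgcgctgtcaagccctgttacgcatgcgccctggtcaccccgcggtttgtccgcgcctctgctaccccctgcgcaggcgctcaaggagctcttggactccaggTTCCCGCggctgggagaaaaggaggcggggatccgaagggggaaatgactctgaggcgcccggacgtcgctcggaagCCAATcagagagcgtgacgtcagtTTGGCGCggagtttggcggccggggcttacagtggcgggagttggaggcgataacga

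The third set, p53 targets that were lower, has p53 decamers in capitals: ABCA12 (chr2:215138577-215138876, minus strand), PTCHD4 (chr6:48111148-48111447, minus strand) and RETSAT (chr2:85354479-85354778, minus strand).
In PTCHD4, a gene related to the Hedgehog receptor, 2 decamers lay side by side.
ABCA12: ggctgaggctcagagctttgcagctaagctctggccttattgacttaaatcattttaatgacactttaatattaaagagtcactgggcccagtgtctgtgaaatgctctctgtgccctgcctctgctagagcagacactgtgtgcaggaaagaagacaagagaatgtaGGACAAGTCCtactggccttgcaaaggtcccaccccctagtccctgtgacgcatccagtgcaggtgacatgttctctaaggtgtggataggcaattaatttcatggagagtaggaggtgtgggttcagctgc
PTCHD4: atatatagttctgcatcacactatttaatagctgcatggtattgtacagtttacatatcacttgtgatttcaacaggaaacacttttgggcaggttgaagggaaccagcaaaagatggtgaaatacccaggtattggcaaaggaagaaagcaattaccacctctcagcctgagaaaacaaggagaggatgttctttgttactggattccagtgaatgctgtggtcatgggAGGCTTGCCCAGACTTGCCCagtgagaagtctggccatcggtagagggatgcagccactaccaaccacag
RETSAT: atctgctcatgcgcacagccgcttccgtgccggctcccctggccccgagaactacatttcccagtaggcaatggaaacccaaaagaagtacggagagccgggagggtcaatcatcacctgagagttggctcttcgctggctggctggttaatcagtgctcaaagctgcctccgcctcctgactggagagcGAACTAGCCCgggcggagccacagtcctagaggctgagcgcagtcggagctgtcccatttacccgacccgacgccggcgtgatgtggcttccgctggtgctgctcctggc

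Over whole lists, CHR matches were in 71.2% of the 52 windows of mitotic genes, against 11.1% of all 10836 windows.
Of the 43 windows of S phase genes 4.65% held a CHR match, while 72.1% held an E2F match, against 19.7% of all windows.
CCAAT matches were in 87.1% of the 31 histone windows, in 69.2% of mitotic and 55.8% of S phase windows, and in 35.9% of all windows.
The p53 decamer was in 9.8% of the 102 windows of p53 targets and in 5.16% of all windows, but also in 11.6% of S phase, 6.45% of histone and 3.85% of mitotic windows.
These are descriptions of letters in windows, and many known p53 sites lie outside such windows.

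**Figure D2:**
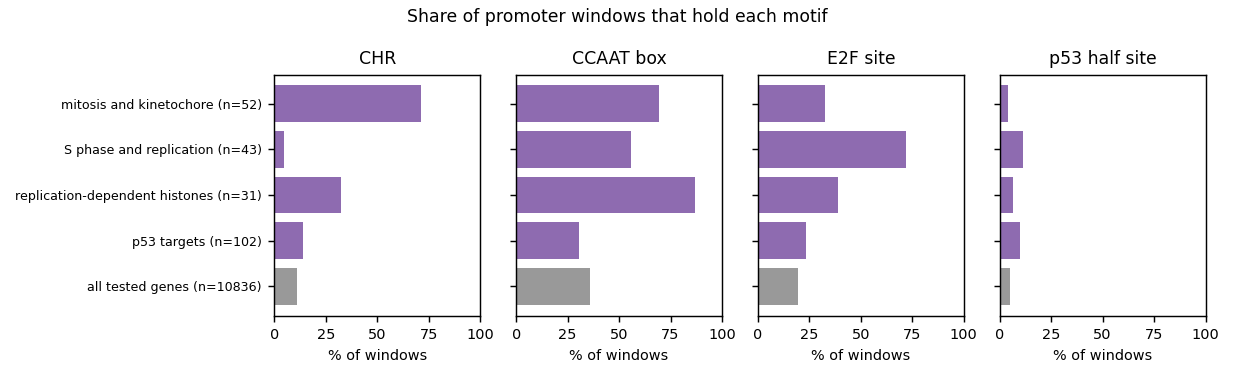
Share of promoter windows of 300 bases (x axis, percent) that held each motif, by gene list (y axis), with all tested genes in grey. CHR matches were in 71.2% of mitotic windows and E2F matches in 72.1% of S phase windows, against 11.1% and 19.7% of all windows.

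Of 119 tested genes in 7 lists of p53 targets, 83 were lower in sh-p53 cells under Nutlin and 2 were higher, against 8.31% and 13.1% of all tested genes.
The median difference over the 119 was -0.75.
All arrays lay apart in the lower direction for 102 of them, against 28.7% of all tested genes.
The members are targets described in human cells of many kinds, and not all are induced in each kind of cell. These and the other lists were drawn up with earlier results of these data known, so their counts are not independent of these data.

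Of the targets listed for feedback on p53, 7 of 11 were lower and none was higher, and the lowest difference was -2.98.
MDM2 stood at 11.20 and 11.17 in sh-p53 cells and at 12.07 and 12.21 in sh-con cells, 1.94-fold lower (difference -0.96 ± 0.136, adjusted p 4.39e-05 by limma, 2 arrays per group).
It remained among the brighter genes of both groups, and its groups did not overlap.
RNF144B, a ubiquitin ligase, differed by -1.97 ± 0.143 and TP53INP1, a nuclear cofactor of p53, by -1.55 ± 0.133.
The nuclease gene AEN differed by -0.21 ± 0.136 and the ubiquitin ligase gene RCHY1 by 0.19 ± 0.166, and neither passed the test.

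Of the growth arrest targets 9 of 12 were lower and none was higher.
CDKN1A, which encodes p21, had 7.61 and 7.63 in sh-p53 cells against 9.92 and 9.76 in sh-con cells, 4.66-fold lower (difference -2.22 ± 0.134, adjusted p 9.20e-10 by limma, 2 arrays per group).
Both groups were tight, and they lay far apart.
PLK3, a stress kinase, differed by -1.53 ± 0.141, GDF15, a secreted stress cytokine, by -1.29 ± 0.154, and GADD45A, a stress sensor that binds PCNA, by -0.75 ± 0.147.
TOB1, an antiproliferative protein, differed by -0.37 ± 0.133 (adjusted p 0.0597 by limma, 2 arrays per group), and was called after a second quantile normalisation, with a stricter filter on dim genes and with a trended, robust fit.

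Of the apoptosis and death receptor targets 15 of 21 were lower and none was higher.
FAS, the death receptor CD95, had 6.99 and 7.0 in sh-p53 cells against 8.89 and 8.90 in sh-con cells (difference -1.90 ± 0.150, adjusted p 2.71e-08 by limma, 2 arrays per group).
CYFIP2, a regulator of actin, differed by -1.74 ± 0.156, the RNA-binding protein ZMAT3 by -1.65 ± 0.132 and the receptor EDA2R by -1.53 ± 0.162.
SIVA1 (-0.04) and the caspase CASP6 (0.08) lay near 0.

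In DNA repair 6 of 10 targets were lower and 1 was higher.
RRM2B, the p53-induced ribonucleotide reductase subunit, had 8.39 and 8.07 in sh-p53 cells against 10.15 and 10.05 in sh-con cells (difference -1.87 ± 0.150).
POLH, a translesion polymerase, differed by -1.60 ± 0.146, the helicase ASCC3 by -1.17 ± 0.151 and DDB2, which finds ultraviolet damage, by -0.89 ± 0.159.
The higher member was FANCC of the Fanconi anaemia core complex, at 0.66 ± 0.162 (adjusted p 0.00663 by limma, 2 arrays per group), not called without sh-p53 Nutlin replicate 1.

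Among targets in metabolism and redox 13 of 20 were lower and none was higher, led by TP53I3.
CMBL, a hydrolase, differed by -2.03 ± 0.151, the carboxylesterase CES2 by -1.66 ± 0.144 and SESN1, a sestrin that restrains mTORC1, by -1.49 ± 0.149.
Among targets in autophagy, mitochondria and transport 17 of 19 were lower and none was higher.
Besides ABCA12 and PLTP these included the diacylglycerol kinase DGKA (-2.51) and ANKRA2 (-2.49).

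Of the secreted and surface targets 16 of 26 were lower and 1 was higher, and 10 were lower when a stricter filter on dim genes was set.
Besides SULF2 they included PTCHD4 (-2.21), the lysosomal membrane protein LAPTM5 (-1.88) and INPP5D, an inositol phosphatase best known from blood cells (-1.81).
The higher member was THBS1, the matrix protein thrombospondin, at 1.24 ± 0.131 (adjusted p 1.20e-06 by limma, 2 arrays per group).
KITLG, the ligand of the receptor KIT, had 5.40 and 5.32 in sh-p53 cells and 5.32 and 5.17 in sh-con cells, a difference of 0.11 ± 0.182 that did not pass.

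Cell cycle genes lay on the other side.
Of 63 tested genes of mitosis and the kinetochore 62 were higher in sh-p53 cells under Nutlin and none was lower, with a median difference of 2.52, against 13.1% and 8.31% of all tested genes.
The member that did not pass was BUB3, a checkpoint protein, with 10.29 and 10.05 in sh-p53 cells and 9.89 and 9.79 in sh-con cells (difference 0.33 ± 0.150, adjusted p 0.135 by limma, 2 arrays per group).
INCENP, a scaffold of the chromosomal passenger complex, had the smallest difference among the members called, 0.72 ± 0.138.
Of the rest, CCNA2, a cyclin of S phase and mitosis, differed by 3.02, CCNB1, the mitotic cyclin, by 2.70, and the transcription factors FOXM1 and MYBL2 by 2.28 and 2.63.
In these bulk samples fewer cells in a phase of the cycle and less RNA per cell cannot be told apart.

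Of 48 genes of S phase and DNA replication 44 were higher and none was lower, with a median difference of 1.82.
RRM2, the ribonucleotide reductase subunit of S phase, had 8.30 and 8.28 in sh-p53 cells against 5.73 and 4.88 in sh-con cells (difference 2.99 ± 0.213).
Its p53-induced paralogue RRM2B differed in the opposite direction.
The 4 members that did not pass were the sliding clamp PCNA (-0.06 ± 0.142), the ligase LIG1 (-0.25 ± 0.129), the licensing inhibitor GMNN (-0.34 ± 0.148) and the thymidylate synthase TYMS (0.35 ± 0.130).
After a second quantile normalisation LIG1 and GMNN were called lower and TYMS higher, and TYMS was also called with a stricter filter on dim genes and with a trended, robust fit.
Of 35 replication-dependent histone genes 28 were higher and none was lower (median 1.28).
H3C2 stood at 9.56 and 9.38 in sh-p53 cells and at 6.12 and 6.34 in sh-con cells (difference 3.24 ± 0.161), while H3C10 (0.01 ± 0.189) and H1-3 (0.16 ± 0.135) did not pass.

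Of 30 genes of homologous recombination and the Fanconi pathway 22 were higher and 1 was lower (median 1.61).
RAD51AP1, a partner of the recombinase, differed by 3.28 ± 0.161, the nuclease EXO1 by 3.18 ± 0.167 and FANCI, which is monoubiquitinated at crosslinks, by 2.91 ± 0.150.
The sh-con means of RAD51AP1 and EXO1 were below the dim level, so the sizes of these differences are uncertain.
The lower member was RAD51C, a recombinase paralogue (-1.02 ± 0.197), and the kinase gene ATM differed by 0.00 ± 0.181.
Of 35 cyclins, kinases and E2F and RB family genes 21 were higher and 2 were lower (median 0.65).
FBXO5, an inhibitor of the anaphase-promoting complex, differed by 2.59 ± 0.175, the phosphatase CDC25A by 2.53 ± 0.194 and CDK2 by 2.05 ± 0.184.
The lower members were the cyclin CCND2 (-0.63 ± 0.151) and the kinase inhibitor CDKN2B (-0.77 ± 0.171), neither of which was called without sh-p53 Nutlin replicate 1, nor CDKN2B without sh-con Nutlin replicate 2; the sh-p53 mean of CCND2 was below the dim level.

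Growth-related lists shifted less.
Of 26 genes of nucleotide synthesis 14 were higher and none was lower (median 0.48), led by SHMT1, which feeds folate carbons (1.73 ± 0.158), DUT, which clears dUTP (1.25 ± 0.135), and MTHFD1 (1.21 ± 0.139).
Of 34 genes of ribosome biogenesis 20 were higher and none was lower (median 0.46).
That count was 12 without sh-con Nutlin replicate 2 and 11 without sh-p53 Nutlin replicate 1.
The largest difference there was that of UTP20, a factor of the small subunit processome, 0.97 ± 0.173.
None of the 28 ribosomal protein genes passed in either direction by limma, 0 did so at an unadjusted p under 0.05, and their median was 0.01.

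**Figure D3:**
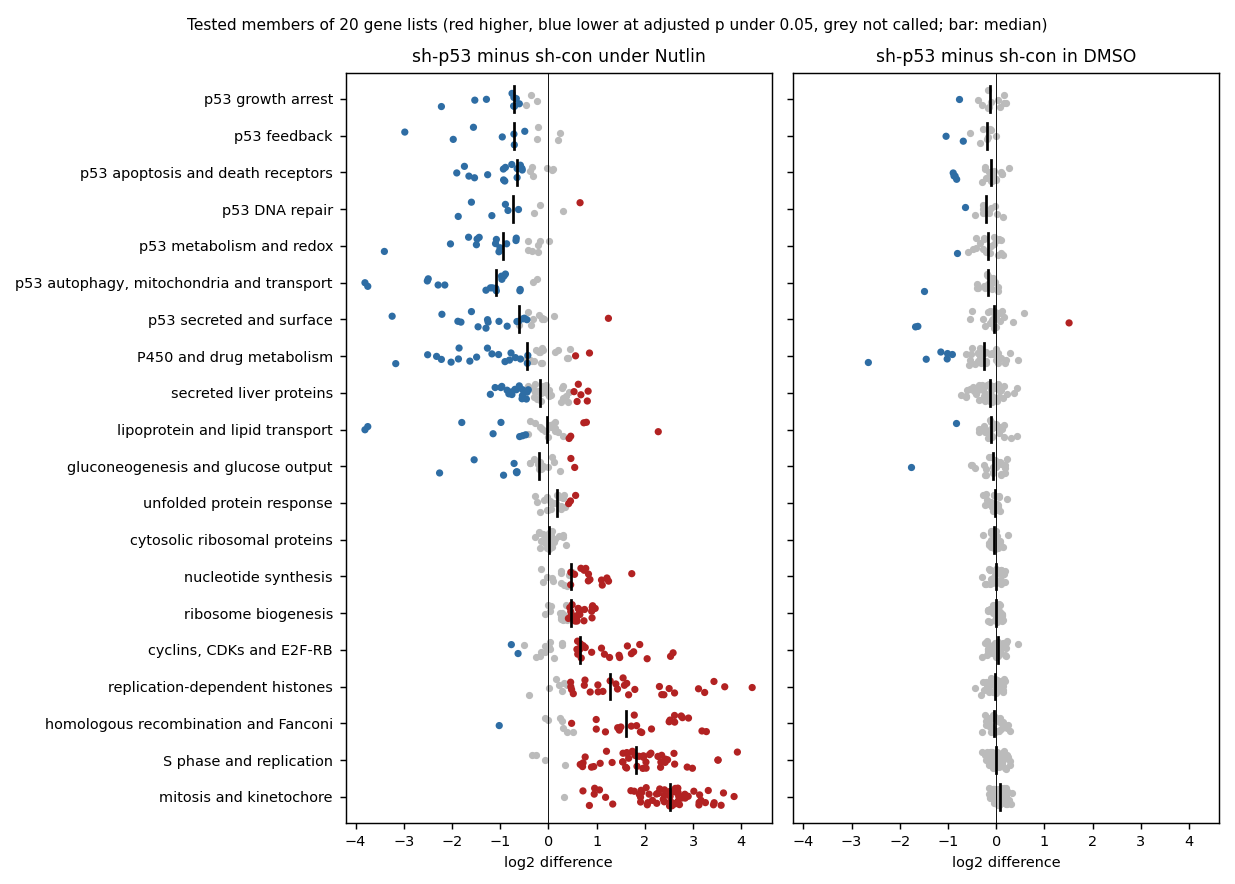
Log2 difference between sh-p53 and sh-con (x axis) of each tested member of 20 gene lists (y axis), under Nutlin on the left and in DMSO on the right; red is higher and blue lower at an adjusted p under 0.05, grey not called, and black bars are medians. Mitotic genes had a median of 2.52 under Nutlin and 0.08 in DMSO, and p53 target lists lay mostly below 0 under Nutlin.

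Genes of liver metabolism were called in both directions. In most of their lists the share called higher was near or below the 13.1% of all tested genes.
Of 37 genes of cytochrome P450 and drug metabolism 19 were lower in sh-p53 cells and 2 were higher (median -0.44), against 8.31% and 13.1% of all tested genes.
GSTA1 had 4.83 and 4.84 in sh-p53 cells against 8.01 and 8.0 in sh-con cells.
CYP4F2 and CYP4F3, fatty acid hydroxylases, differed by -2.50 ± 0.167 and -2.22 ± 0.131, and CYP3A5, a drug-metabolising monooxygenase, by -2.32 ± 0.168.
Members of these families are close copies, and their probe sets may share signal.

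Of 24 genes of gluconeogenesis and glucose output 7 were lower and 2 higher.
G6PC1, the last enzyme of glucose release, had 4.95 and 5.09 in sh-p53 cells against 7.37 and 7.19 in sh-con cells (difference -2.26 ± 0.149, adjusted p 2.78e-09 by limma, 2 arrays per group).
Of 25 genes of fatty acid oxidation and ketogenesis 8 were lower and 3 higher, and the lower count was 5 without sh-con Nutlin replicate 1 and 4 without sh-p53 Nutlin replicate 2, while the higher count was 1 without sh-con Nutlin replicate 2 or sh-p53 Nutlin replicate 1.
CPT1A, which commits fatty acids to mitochondrial oxidation, differed by -1.51 ± 0.169, and BDH1, which makes the ketone body hydroxybutyrate, by -1.46 ± 0.170.

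Of 30 genes of lipoprotein and lipid transport 8 were lower and 5 higher.
Besides ABCA12 and PLTP, CEL, a lipase, was lower at -1.80 ± 0.157.
MTTP, which loads lipid onto apolipoprotein B, had 8.80 and 8.36 in sh-p53 cells against 6.48 and 6.13 in sh-con cells (difference 2.28 ± 0.160, adjusted p 6.43e-09 by limma, 2 arrays per group).
The count of higher genes in that list was 2 without sh-con Nutlin replicate 2 or sh-p53 Nutlin replicate 1, 3 without sh-con Nutlin replicate 1, and 3 with arrays centred on their median.
Of 28 genes of fatty acid and cholesterol synthesis 5 were higher, led by the elongase ELOVL6 (1.42 ± 0.144), and 3 lower, which was 0 or 1 without any single Nutlin array and 0 with centred arrays.

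In bile acid synthesis and transport 6 of 17 genes were higher and 3 lower.
NR5A2, a nuclear receptor that acts on bile acid genes, had 7.85 and 7.45 in sh-p53 cells against 5.79 and 5.20 in sh-con cells (difference 2.15 ± 0.175).
AKR1D1, a reductase of bile acid synthesis, differed by 2.03 ± 0.175, and SLC51B, a subunit of the bile acid exporter, by -1.35 ± 0.158.
Of 25 hepatocyte transcription factors 3 were higher and 3 lower, near the 13.1% and 8.31% of all tested genes, among them HHEX (1.00 ± 0.145) and TBX3 (-0.89 ± 0.152); the lower count was 1 without sh-con Nutlin replicate 2 and 5 after a second quantile normalisation.
Of 52 secreted liver proteins 17 were lower and 6 higher, led by SERPINA6, which carries cortisol (-1.20 ± 0.139).
The lower count was 10 without sh-con Nutlin replicate 1 or sh-p53 Nutlin replicate 2, and the higher count was 3 without sh-con Nutlin replicate 1, 1 without sh-p53 Nutlin replicate 1 and 10 with a trended, robust fit.

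Lists of stress responses and growth factors were read against the same shares of all tested genes, 13.1% higher and 8.31% lower.
Of 28 NRF2 antioxidant genes 9 were lower and 1 higher, led by the reductases AKR1B10 (-1.85 ± 0.203) and AKR1C2 (-1.63 ± 0.165); 5 were lower without sh-con Nutlin replicate 2.
Of 41 amino acid response genes 6 were lower and 5 higher, the second below the 13.1% of all tested genes, and the higher count was 1 without sh-con Nutlin replicate 2 or sh-p53 Nutlin replicate 1.
NUPR1, a stress-induced chromatin protein, had 6.00 and 6.14 in sh-p53 cells against 8.63 and 8.76 in sh-con cells (difference -2.62 ± 0.161), while PHGDH, the first enzyme of serine synthesis, was higher by 1.08 ± 0.142.
Of 35 autophagy and lysosome genes 9 were lower, such as the cargo receptor SQSTM1 (-0.80 ± 0.140), and 3 higher, such as the lysosomal galactosidase GLA (0.84 ± 0.171).
Those lower counts were 4, 5 and 3 without sh-con Nutlin replicate 1, sh-con Nutlin replicate 2 and sh-p53 Nutlin replicate 2, and the higher count was 1 without sh-con Nutlin replicate 2 or sh-p53 Nutlin replicate 1.
Of 14 genes of the insulin-like growth factor system 5 were lower and 2 higher, led by the binding proteins IGFBP1 (-1.36 ± 0.216) and IGFBP2 (-1.16 ± 0.180); 3 were lower without sh-p53 Nutlin replicate 1 or with a stricter filter on dim genes.

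Of 33 genes of glycolysis and the hypoxia response 7 were higher and none lower, led by the glucose transporter SLC2A3 (1.24 ± 0.177), but the count was 1 without sh-con Nutlin replicate 2 and 2 without sh-p53 Nutlin replicate 1.
Of 25 unfolded protein response genes 3 were higher and of 28 oxidative phosphorylation genes 3, with none lower in either list, and both counts of higher genes are below the 13.1% of all tested genes.
The first of these counts was 0 without sh-con Nutlin replicate 1 or sh-p53 Nutlin replicate 1, 1 without sh-con Nutlin replicate 2 and 6 with a trended, robust fit.
The second was 1 without sh-con Nutlin replicate 1, sh-con Nutlin replicate 2 or sh-p53 Nutlin replicate 1, and 1 with centred arrays.
Of 25 interferon and inflammation genes 3 were lower, with the largest difference in the interleukin receptor IL6R (-0.95 ± 0.144), and 2 higher, which is near the 8.31% lower and below the 13.1% higher of all tested genes.
Of 24 genes often used as references, 4 were higher, which is near the 13.1% of all tested genes, and the median was 0.17. They were the tubulins TUBA1B (0.98) and TUBB (0.95), the transferrin receptor TFRC (0.53) and the proteasome subunit PSMB2 (0.51).
The count of higher reference genes was 2 without sh-con Nutlin replicate 2 or sh-p53 Nutlin replicate 1. It was 7 without sh-p53 Nutlin replicate 2, and 9 with a trended, robust fit or a stricter filter on dim genes.

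Markers of cells other than hepatocytes were also read.
Of 8 endothelial markers LYVE1 and ENG were lower (-3.55 ± 0.181 and -0.70 ± 0.152), and ENG was not called without sh-con Nutlin replicate 2.
The defining markers PECAM1, VWF, CDH5, KDR, TEK and STAB2 were below the dim level in the mean of all arrays.
The mean level of the 8 was 4.34 and 4.45 in sh-p53 cells and 4.95 and 5.01 in sh-con cells, and their summed level was 7.46 and 7.59 in sh-p53 cells and 9.02 and 8.76 in sh-con cells.
Of 8 fibroblast and stellate markers 5 were tested and 1 was lower, the smooth muscle actin ACTA2 (-2.15 ± 0.160), while the collagens COL1A1 (-0.21) and COL3A1 (-0.18) did not pass.
Their summed level was 9.25 and 9.16 in sh-p53 cells and 10.87 and 10.69 in sh-con cells.
Of 6 measured leukocyte markers 4 were tested and CD14 was lower (-0.74 ± 0.150), with a summed level of 12.62 and 12.51 in sh-p53 cells and 12.65 and 12.66 in sh-con cells.
Of 7 measured cholangiocyte and progenitor markers 6 were tested, with EPCAM (0.56) and PROM1 (0.59) higher and KRT19 (-0.74) and SPP1 (-0.58) lower; EPCAM and PROM1 were not called without sh-p53 Nutlin replicate 1, nor PROM1 and SPP1 without sh-con Nutlin replicate 2.
The part of such cells in any result was not tested.

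The same lines were compared in DMSO, with 4 other arrays.
There sh-p53 cells had 36 genes higher (0.261% of those tested) and 53 lower (0.384%) than sh-con cells.
Of the 36, 29 were also higher under Nutlin, which is 80.6% of the DMSO genes and 1.60% of the Nutlin genes.
Of the 53, 47 were also lower under Nutlin, 88.7% and 4.09%.
The 36 had a median difference of 0.91 under Nutlin and 1.00 in DMSO, and the 53 of -1.21 under Nutlin and -0.91 in DMSO, where their values in DMSO chose them.
A single gene was called in opposite directions: KLB, the co-receptor for the hormone FGF19, differed by 0.62 ± 0.149 under Nutlin and by -0.82 in DMSO, and its Nutlin call was lost without sh-con Nutlin replicate 2 or sh-p53 Nutlin replicate 1.

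PLA2G2A, GSTA1 and TSPAN7 differed by nearly as much in DMSO, where the differences were 3.42, -2.65 and -2.69.
NR5A2 differed by 1.43 in DMSO and AQP9, a glycerol channel, by -1.77, against 2.15 and -1.54 under Nutlin, where the sh-p53 mean of AQP9 was below the dim level.
Of the p53 targets 12 of 119 were lower in DMSO and 1, KITLG, was higher (1.51), with a median of -0.13.
CDKN1A differed by -0.76 in DMSO, MDM2 by -0.68, FAS by -0.89, SULF2 by -1.67, PTCHD4 by -1.63 and SPATA18, a protein of mitochondrial quality control, by -1.50.
None of the 63 mitotic, 48 S phase or 35 histone genes was called in DMSO by limma, and their medians there were 0.08, -0.01 and -0.02 (at an unadjusted p under 0.05, 1 mitotic gene was higher and 1 histone gene lower).

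**Figure D4:**
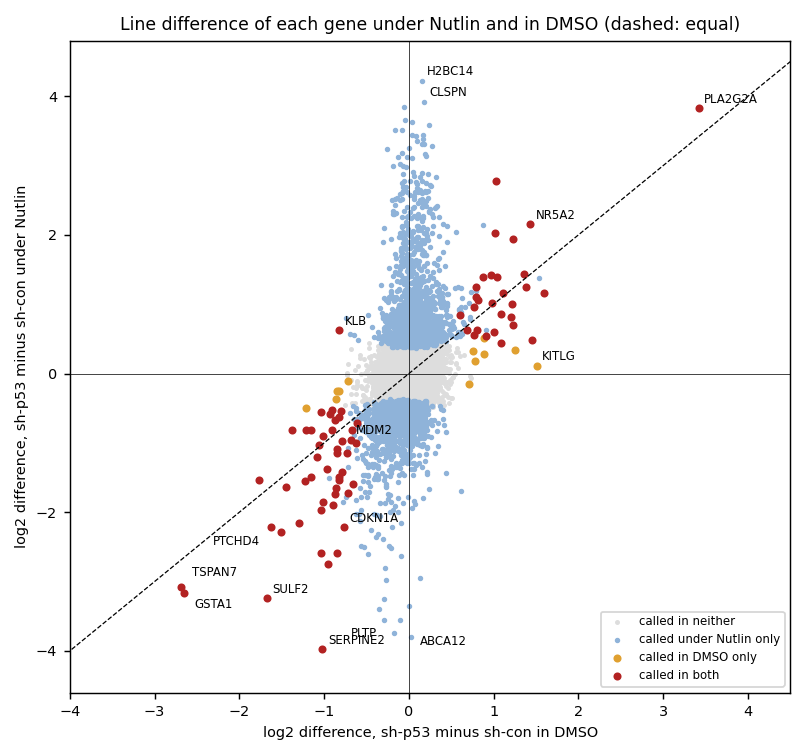
Log2 difference between sh-p53 and sh-con of each tested gene under Nutlin (y axis) and in DMSO (x axis), which used different arrays; colours give where a gene was called, and the dashed line marks equal differences. PLA2G2A, GSTA1 and TSPAN7 lay near the dashed line, whereas H2BC14, CLSPN, ABCA12 and PLTP lay near 0 on the x axis. In DMSO the ABCA12 means of both lines were below the dim level.

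Whether the line difference itself changed with Nutlin was tested as an interaction, the line difference under Nutlin minus that in DMSO, which shares the 4 Nutlin arrays with the comparison above.
It was higher for 645 genes (4.67%) and lower for 377 (2.73%).
Of the lists, 61 of 63 mitotic, 42 of 48 S phase and 22 of 35 histone genes had a higher interaction, and 52 of 119 p53 targets a lower one.
For H2BC14 the interaction was 4.07 ± 0.209, for SPC25 3.91, for ABCA12 -3.83, for PLTP -3.57 and for TP53I3 -3.05. In DMSO the ABCA12 means, 3.83 in sh-p53 and 3.8 in sh-con cells, were both below the dim level, where a line difference could not be seen.
For CDKN1A it was -1.45 (adjusted p 3.82e-05 by limma, 2 arrays per group).
For MDM2 it was -0.27 (adjusted p 0.481), for PTCHD4 -0.58 (0.134), for SPATA18 -0.78 (0.0572) and for SESN1 -0.67 (0.0630), so these differences were not shown to change with Nutlin.
For PLA2G2A it was 0.40, for GSTA1 -0.51 and for TSPAN7 -0.39, and none of these passed.
For KLB it was 1.44 and for KITLG -1.40, both called.

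Each line was also set against its own DMSO arrays, which share the Nutlin arrays with the comparison of lines.
In sh-p53 cells 11 genes were higher with Nutlin (0.0796% of those tested) and none lower by limma, and at an unadjusted p under 0.05 the counts were 296 higher and 564 lower.
The 11 were MDM2 (1.32), TP53INP1 (1.36), CDKN1A (1.39), ZMAT3 (0.94), SESN1 (0.90), SPATA18 (1.23), SULF2 (0.89), ACTA2 (1.35), the antigen-presenting molecule MR1 (0.85), the globin CYGB (1.12) and the sulfotransferase SULT2A1 (1.09).
In sh-con cells the same contrast was 1.59 for MDM2, 2.37 for TP53INP1, 2.84 for CDKN1A, 1.74 for ZMAT3, 1.57 for SESN1, 2.01 for SPATA18 and 2.46 for SULF2.
For ABCA12 it was 0.08 in sh-p53 cells and 3.91 in sh-con cells, and for PLTP it was -0.06 in sh-p53 cells and 3.51 in sh-con cells. The ABCA12 means were below the dim level in sh-p53 cells with and without Nutlin and in sh-con cells in DMSO.
The median over the 119 p53 targets was 0.21 in sh-p53 cells and 0.88 in sh-con cells.
For mitotic genes it was -0.50 in sh-p53 cells and -2.94 in sh-con cells, for S phase genes -0.40 in sh-p53 cells and -2.21 in sh-con cells, and for histone genes -0.17 in sh-p53 cells and -1.58 in sh-con cells.
No member of these cell cycle lists was called in sh-p53 cells by limma, and 52 of 63 mitotic and 35 of 48 S phase genes were lower there at an unadjusted p under 0.05.

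**Figure D5:**
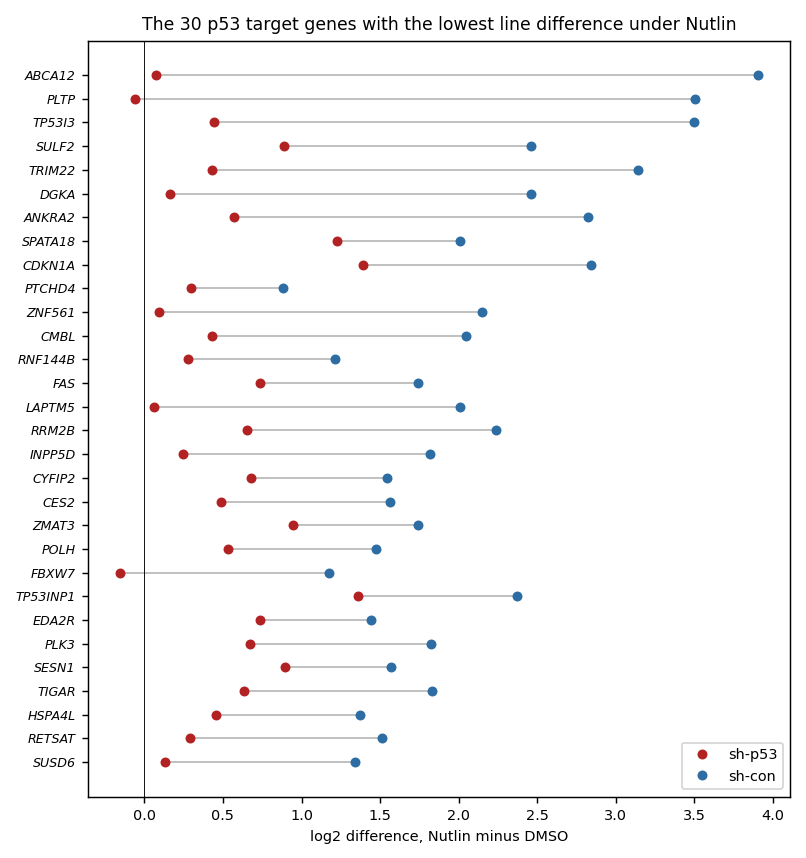
Log2 difference between Nutlin and DMSO (x axis) in sh-p53 cells (red) and sh-con cells (blue) for the 30 p53 targets (y axis) with the lowest line difference under Nutlin. Each sh-p53 point lies left of its sh-con point, an order that the choice by line difference favours. Values ran from 0.08 against 3.91 for ABCA12 to above 1 in sh-p53 cells for CDKN1A, TP53INP1 and SPATA18. The sh-p53 means of ABCA12 were below the dim level.

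Under AICAR, compared with 4 further arrays, sh-p53 cells had 571 genes higher (4.13%) and 648 lower (4.69%).
Of these, 211 were also higher under Nutlin (37.0% of the AICAR genes and 11.7% of the Nutlin genes) and 345 also lower (53.2% and 30.1%).
Opposite calls were made for 33 genes higher under Nutlin and lower under AICAR, among them H4C2 and the centromere gene CENPW, and for 9 genes lower under Nutlin and higher under AICAR.
Of the 119 p53 targets 63 were lower under AICAR and 1 was higher, with a median of -0.51.
TP53I3 differed by -2.84 with AICAR, CSTA by -2.62, CLTRN by -2.49 and MDM2 by -1.21, whereas ABCA12 differed by -0.46.
Of mitotic genes 3 of 63 were higher and 1 was lower with AICAR (median 0.03), of S phase genes 13 of 48 were higher and 1 was lower (0.20), and of histone genes none of 35 was higher and 4 were lower (-0.29).
MYBL2 differed by 1.04 with AICAR and FOXM1 by 0.75, and PCNA by -0.54.

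The line difference under Nutlin minus that under AICAR was higher for 724 genes (5.24%) and lower for 364 (2.64%), so 66.5% of the calls were higher, against 54% after a second quantile normalisation.
In the lists it was higher for 60 of 63 mitotic, 40 of 48 S phase and 24 of 35 histone genes, and lower for 17 of 119 p53 targets.
The highest values were those of H2BC14 (4.52), H2BC7 (3.83), CDK1 (3.81), SPC25 (3.67) and H4C2 (3.66).
The lowest were those of ABCA12 (-3.35), LYVE1 (-3.24), the lipocalin LCN15 (-2.66), CCN1, a matrix protein (-2.21), and the protease PLAU (-1.99). With AICAR both ABCA12 means, 3.88 in sh-p53 and 4.34 in sh-con cells, were below the dim level.
PLAU itself had 5.63 and 5.74 in sh-p53 cells and 5.70 and 5.83 in sh-con cells under Nutlin, a difference of -0.08 ± 0.144, against a difference of 1.91 with AICAR.

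Genes of microRNAs were read from the same arrays, whose probe sets measure the gene or precursor and not the mature microRNA.
Of 58 tested, 3 were lower in sh-p53 cells under Nutlin and 1 was higher, which is below the shares of 8.31% and 13.1% over all genes; they are named because they were the calls.
MIR34A, the microRNA gene best known as a p53 target, had 4.87 and 4.76 in sh-p53 cells against 5.69 and 5.25 in sh-con cells (difference -0.65 ± 0.209, adjusted p 0.0326 by limma, 2 arrays per group), a call lost after a second quantile normalisation and without sh-con Nutlin replicate 1, sh-p53 Nutlin replicate 1 or sh-p53 Nutlin replicate 2.
MIR21 had 9.47 and 9.37 in sh-p53 cells against 10.43 and 10.09 in sh-con cells (difference -0.84 ± 0.168).
MIR192, a liver-rich microRNA gene, had 4.79 and 4.86 in sh-p53 cells against 5.43 and 5.34 in sh-con cells (difference -0.56 ± 0.150), and was not called without sh-con Nutlin replicate 1 or sh-p53 Nutlin replicate 1.
MIR15A, at 5.20 and 5.04 in sh-p53 cells against 4.25 and 4.40 in sh-con cells, was the higher one (difference 0.80 ± 0.174), and lies within DLEU2, itself higher by 2.25 ± 0.237.
The sh-con arrays of MIR15A were below the dim level, and no 2 of these 5p sequences share a seed (bases 2 to 8, in capitals; RefSeq, GRCh38.p14).
hsa-miR-34a-5p: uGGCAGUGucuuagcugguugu
hsa-miR-21-5p: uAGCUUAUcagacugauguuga
hsa-miR-192-5p: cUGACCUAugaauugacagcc
hsa-miR-15a-5p: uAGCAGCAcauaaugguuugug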

How the data were processed

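RNA of HepG2 wells was extracted with TRI reagent and labelled with an Affymetrix kit for arrays, per the labels' protocols. The authors deposited log2 values for 33297 probe sets, made with RMA and Partek per the submitters' processing notes; no version is known. RMA draws arrays towards 1 distribution, which removes part of a change shared by most genes, and dim genes are understated. The platform annotation gave 19460 probe sets 1 symbol, 1754 several and 12083 none, and 19433 of the first were found in RefSeq. A gene was its brightest single-symbol probe set (18417 genes, 769 with several), and 4604 dim genes (mean below percentile 25) were left out.

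Group means of the 12 arrays were fitted with limma 3.58.1 in R 4.3.3 (6 residual degrees of freedom, prior 11.3, prior SD 0.154), with 2-sided tests and Benjamini-Hochberg adjustment over 13813 genes for each comparison. The fit was tested on simulated data for the Nutlin comparison and for its interaction with DMSO. Members and lists were chosen with earlier results of these data known, and lists are described by counts and medians without a list test. Named were the 12 highest and 12 lowest called genes whose arrays did not overlap, up to 4 called members of each list with the largest differences, up to 2 with the smallest, CDKN1A, MDM2 and TP53I3, and the extremes of the interactions. THBS1, FANCC, RAD51C, CCND2, CDKN2B, GMNN, TYMS, CCNA2, CCNB1, FOXM1, MYBL2, DLEU2, CENPW, the microRNA genes and the genes of the closing observations were named after their values were seen. Alternatives were a second quantile normalisation, median centring, other filters on dim genes, the mean of a gene's probe sets, only the groups compared, a trended robust fit, the replicate number as a block, and each array left out. The number of arrays, 2 per group, limits the precision.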

Additional observations from a re-analysis of the deposited data

Results flagged for a closer look

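The line difference under Nutlin was tested against the line difference in DMSO as an interaction in limma, and 645 genes had a higher and 377 a lower value, adjusted over 13813 genes.
The highest were H2BC14 (4.07), SPC25 (3.91), CLSPN (3.74), H2AC4 (3.70) and CDC6 (3.68), and the lowest ABCA12 (-3.83), PLTP (-3.57), LYVE1 (-3.45), CLTRN (-3.35) and CSTA (-3.26). All ABCA12 group means but that of sh-con Nutlin were below the dim level, as were the DMSO means of CLTRN in both lines. The sh-p53 Nutlin mean of LYVE1 was below it too. In each DMSO array 7 of the 8 endothelial markers, which include LYVE1, were below that level.
CDKN1A (-1.45) and TP53I3 (-3.05) also differed between the treatments.
Against the line difference under AICAR, 724 genes had a higher and 364 a lower value in the same kind of test.
The highest were H2BC14 (4.52), H2BC7 (3.83), CDK1 (3.81), SPC25 (3.67) and H4C2 (3.66), and the lowest ABCA12 (-3.35), LYVE1 (-3.24), LCN15 (-2.66), CCN1 (-2.21) and PLAU (-1.99).
Both tests share the 4 Nutlin arrays.
With 2 arrays per group, no group was large enough to look for a single outlying array.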

How the results depend on the processing

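Sizes rest on 2 arrays per group, and values below the dim level carry mostly background. The count of genes called under Nutlin was 2956. It was 3377 after a second quantile normalisation (53.2% higher, against 61.2%), 2604 with arrays centred on their median, 2942 without a filter on dim genes, 2786 with a stricter one, 2964 with the mean of a gene's probe sets, 3044 with only the groups compared and 3184 with a trended, robust fit.
The labels do not say that replicate numbers pair the wells, and deviations of same-numbered arrays correlated at 0.355 between the lines under Nutlin and at -0.269 in DMSO (range -0.558 to 0.567 over 15 pairs of groups). With the replicate number as a block, 2975 genes were called (1816 higher and 1159 lower).
Leaving out 1 array gave 1716 to 2767 genes (889 to 1784 higher and 733 to 983 lower).
In DMSO the count was 89, and 175 (63 higher and 112 lower) with only the groups compared; leaving out 1 array gave 42 to 60 (22 to 24 higher and 20 to 38 lower).
Under AICAR it was 1219, and 1829 (888 higher) after quantile normalisation; with only the groups compared 341 were higher, and leaving out 1 array gave 521 to 1038 (139 to 607 higher and 264 to 730 lower).
The interaction with DMSO had 1022 genes, with 586 lower after quantile normalisation, and 653 to 986 with 1 array left out (411 to 695 higher and 233 to 321 lower).
The interaction with AICAR had 1088 genes. Its lower count of 364 was 730 after quantile normalisation (858 higher), 211 with centred arrays and 219 with only the groups compared. Leaving out 1 array gave 582 to 1525 (409 to 1064 higher and 173 to 461 lower).
The cause of these shifts was not tested. No named gene changed direction past the threshold in the Nutlin comparison or its interaction with DMSO.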

Other observations

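Of the genes called under Nutlin, 1532 of the 1808 higher and 968 of the 1148 lower were in none of the lists. The groups and genes here were chosen after their values were seen. Gene families were matched by symbol among all tested genes, so they can share members with the lists.
Small nucleolar RNA genes, whose RNAs guide the modification of ribosomal RNA and mostly lie in introns of host genes, were higher in 59 of 132 and lower in 0, with a median difference of 0.43, against 13.1% and 8.31% of all tested genes.
SNORD30 had 9.65 and 9.49 in the sh-p53 arrays against 7.41 and 7.21 in the sh-con arrays under Nutlin (difference 2.26 ± 0.152), and SNORD12C had 8.77 and 8.51 in sh-p53 cells against 6.52 and 6.49 in sh-con cells (2.13 ± 0.183).
Whether the probe sets also read the host transcripts was not tested.
Nucleoporin genes, which build the nuclear pore, were higher in 16 of 22 and lower in none (median 0.68), and centromere protein genes in 13 of 20, with none lower (median 1.08).
Kinesin genes were higher in 12 of 39 and lower in 2. Zinc finger genes were higher in 49 of 392 and lower in 25, below the 13.1% and 8.31% of all tested genes. Solute carrier genes were higher in 28 of 282 and lower in 24. ABC transporter genes were higher in 4 of 33 and lower in 7, and tetraspanin genes higher in 2 of 18 and lower in 5.
The proliferation marker MKI67 had 8.47 and 8.58 in sh-p53 cells against 5.71 and 5.34 in sh-con cells (difference 3.0 ± 0.147).

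CCN1, CCN2 and ANKRD1, best known as targets of the YAP coactivator, were lower in sh-p53 cells under Nutlin by limma, with differences of -1.99 ± 0.161, -1.72 ± 0.130 and -1.35 ± 0.150. No list of YAP targets was counted, and YAP activity was not tested.
CCN1 had 6.90 and 6.70 in sh-p53 cells against 8.90 and 8.69 in sh-con cells, and differed by -0.23 in DMSO, which did not pass.
In DMSO CCN2 was lower as well (-0.72, adjusted p 0.00777 by limma, 2 arrays per group), and ANKRD1 differed by -0.48, which did not pass.
Single genes outside the lists, with no count of others like them, were also lower: the death ligand TNFSF10 had 5.31 and 4.88 in sh-p53 cells against 7.96 and 7.72 in sh-con cells (-2.74 ± 0.184), the pore former BAK1 differed by -1.35 ± 0.162 and GSDME, a gasdermin, by -1.45 ± 0.161.
The iron exporter SLC40A1 had 7.81 and 7.62 in sh-p53 cells against 10.29 and 10.32 in sh-con cells (-2.59 ± 0.148).
The Wnt inhibitor DKK1 was higher, at 11.10 and 10.74 in sh-p53 cells against 8.30 and 7.97 in sh-con cells (2.78 ± 0.162), and so was LOX, which crosslinks collagen (2.38 ± 0.229).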
